A study of Saccharomyces cerevisiae with 11 samples.

Results

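The nuclear genes for proteins of the mitochondrial ribosome were examined for sites of cap-binding complex and Rnt1 recruitment in budding yeast. A gene was taken when the R64 annotation lists it as nuclear and protein-coding and its symbol is MRPL, MRPS, RSM or MRP followed by a number. This rule found 67 of 6002 nuclear protein-coding genes, of which 34 are named MRPL, 9 MRPS, 11 RSM and 13 MRP. They are called mitoribosomal genes here, and the 5935 other nuclear protein-coding genes serve as their reference. By their names and synonyms, 38 encode proteins of the large subunit and 28 proteins of the small subunit. The last one, MRP8, is annotated as a hypothetical protein that was originally thought to belong to the mitochondrial ribosome, so its label does not match its annotation.

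The mitochondrial ribosome translates the few proteins encoded by mitochondrial DNA, mostly core subunits of the respiratory chain and of the ATP synthase. Nearly all of its own proteins are encoded in the nucleus, transcribed by RNA polymerase II as capped mRNA, translated in the cytosol and imported. In yeast, many of these mRNAs carry a 3ʹ element bound by Puf3, an RNA-binding protein of the Pumilio family. The cap-binding complex (CBC), a heterodimer of Cbp20 and Cbp80, binds the cap while the transcript is still being made. Rnt1 is the yeast RNase III, which cleaves stem-loops in precursors of rRNA, snRNA, many snoRNA and some mRNA.

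The study asked where CBC and Rnt1 are recruited on snoRNA transcription units, and its ChIP-seq covers all other genes as well. The series holds 11 samples, of which 4 are ChIP libraries with a peak list, 2 for Cbp20-myc and 2 for Rnt1-myc, and the other 7 were not analysed here. Both strains are MATa and share deletions in HIS3, LEU2, MET15 and URA3, both were grown in YPD at 30 °C, and both were precipitated with an anti-myc antibody. The Rnt1-myc strain carries RNT1-myc13::NAT. The genotype given for the Cbp20-myc libraries is CBP80-myc13::NAT, so the labels name one CBC subunit in the title and the other in the genotype. The labels number only the second library of each protein, so the unnumbered one is called replicate 1, and nothing in them says whether replicates came from separate cultures.

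The peak lists hold positions only, with no height and no score, and the read depth behind them is unknown. Cbp20 peaks numbered 3801 in replicate 1 and 3648 in replicate 2, and covered 23.1% and 21.6% of the nuclear genome. Rnt1 peaks numbered 1238 and 1741, and covered 5.92% and 9.98%. The measure used throughout is the share of a gene's bases under peaks, from start codon to stop codon including introns, because the annotation of these genes holds no untranslated regions. A gene is counted for a protein when at least 1 bp lies under a peak in both replicates. Peaks have no strand, so overlapping and closely spaced genes cannot be separated. With 2 libraries a protein, the smallest 2-sided p that an exact permutation test can give is 0.333, so no test was made and all differences are descriptions. The precision is that of the values in the replicates. No list from an untagged strain was used, so the background of the precipitation is not known.

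The stretch where Cbp20 peaks begin is shown first, for the members with the highest Cbp20 share and for an exception. Each line gives the first 100 bases of the gene on its own strand, from the start codon on, read from the RefSeq R64 genome (sacCer3). Capitals mark bases under Cbp20 peaks in both replicates. RSM7 is at chrX:638876-638975 on the minus strand, MRPS12 at chrXIV:694723-694822 on the minus strand, MRP20 at chrIV:1277646-1277745 on the plus strand and MRPL28 at chrIV:1386073-1386172 on the plus strand. MRPL8 at chrX:316376-316475 and MRP13 at chrVII:648043-648142, both on the minus strand, are the only members covered from the first base in both replicates. MRP13 was added after its values were seen, because its peak is shared with RPL11B.
RSM7: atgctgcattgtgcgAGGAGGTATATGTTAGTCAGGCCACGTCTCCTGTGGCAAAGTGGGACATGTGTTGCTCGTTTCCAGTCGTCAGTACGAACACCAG
MRPS12: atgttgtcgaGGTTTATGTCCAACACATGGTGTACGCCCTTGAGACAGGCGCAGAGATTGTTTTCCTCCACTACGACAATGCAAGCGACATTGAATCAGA
MRP20: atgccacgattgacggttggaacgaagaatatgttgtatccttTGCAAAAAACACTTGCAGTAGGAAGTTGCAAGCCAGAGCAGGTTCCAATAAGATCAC
MRPL28: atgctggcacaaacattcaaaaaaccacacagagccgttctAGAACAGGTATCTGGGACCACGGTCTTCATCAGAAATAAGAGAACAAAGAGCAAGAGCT
MRPL8: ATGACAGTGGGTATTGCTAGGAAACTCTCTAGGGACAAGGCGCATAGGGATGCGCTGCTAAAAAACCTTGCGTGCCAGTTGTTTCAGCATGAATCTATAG
MRP13: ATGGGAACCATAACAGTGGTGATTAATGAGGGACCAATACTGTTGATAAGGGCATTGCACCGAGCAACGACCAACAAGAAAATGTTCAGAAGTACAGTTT

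The 3ʹ element is shown next, because nearly all members share it and the rule that chose them did not use it. The motif searched was TGTANATA, the DNA form of the Puf3 element UGUANAUA, on the sense strand within 200 bp past the stop codon. Each line gives the site in capitals with 11 bases on each side. The sites are at chrX:638203-638210 for RSM7, chrX:315725-315732 for MRPL8, chrXIV:694280-694287 for MRPS12 and chrIX:187944-187951 for RSM25, all on the minus strand. Those of MRP20 at chrIV:1278510-1278517 and of MRPL28 at chrIV:1386548-1386555 are on the plus strand.
RSM7: gtaaacttgccTGTACATAaacacatttat
MRPL8: gtgtattccctTGTAAATAtatagatgaca
MRPS12: atacaacctttTGTAAATAgcaatgaccat
RSM25: cctaaccaaccTGTATATAattaaaaacaa
MRP20: cccctcacactTGTATATAcggagcaaact
MRPL28: ctgtctcctgcTGTAAATAactgatgatca

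Mitoribosomal genes carried Cbp20 peaks about as often as other genes. Both Cbp20 replicates had a peak on 32 of the 67 (47.8%), against 44.8% of other genes, while 44.9% of all nuclear protein-coding genes were called. Among the 4294 other genes within the length range of the members, 213 to 1887 bp, the share was 46.4%. A further 11 members had a peak in one replicate only, 8 in replicate 1 and 3 in replicate 2. The other 24 had none in either, 12 of the large subunit and 12 of the small. The members are short genes, with a median length of 699 bp against 1215 bp for other genes. With only the wider 50% of each library's peaks, 12 members were called and the difference to other genes in percent called turned to -11.4 points.

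The share of bases differed more in its median than in its mean. The median share under Cbp20 peaks was 29.2% in replicate 1 and 18.7% in replicate 2 for the members, against 5.73% and 0% for other genes. For other genes in the members' length range it was 13.5% and 3.62%, so the gap was smaller there. The mean share was 34.2% and 30.5% for the members, against 31.9% and 30.7% for other genes. So the means lay close together in both replicates. Without replicate 1 their difference was -0.16 points, and against other genes in the length range it was -2.67 points. At least 50% of the bases were under Cbp20 peaks in both replicates in 19 members (28.4%), and the background was 27.4%. A Cbp20 peak centred inside the gene in both replicates was found on 27 members (40.3%), and the background was 38.3%. Peaks covered no member from end to end in both replicates, while the background for this call was 6.65%.

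The 8 members with the highest Cbp20 share were 5 of the large and 3 of the small subunit. In the universal names that follow, u marks a protein found in all domains of life, b one shared with bacteria and m one specific to mitochondria. RSM7 (YJR113C, uS7m) encodes a small subunit protein whose bacterial counterpart binds the rRNA of that subunit. It had 98.3% of its 744 bp under Cbp20 peaks in replicate 1 and 98.0% in replicate 2. MRPL8 (YJL063C, bL17m), a large subunit gene, had 98.5% and 92.9% of 717 bp. MRPS12 (YNR036C, uS12m), whose bacterial counterpart sits at the decoding centre, had 91.8% and 98.9% of 462 bp. Thus the highest shares occurred in genes of both subunits.

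MRP20 (YDR405W, uL23m) encodes a protein at the exit of the polypeptide tunnel. It had 95.3% of its 792 bp under Cbp20 peaks in replicate 1 and 94.6% in replicate 2. MRPL4 (YLR439W, uL29m), whose product also lies at the tunnel exit, had 83.3% and 86.1% of 960 bp. MRPL28 (YDR462W, mL40), which encodes a mitochondria-specific protein of the large subunit, had 90.8% and 94.8% of 444 bp. MRPL39 (YML009C, bL33m) is the shortest member at 213 bp. It had 90.6% and 77.5%. RSM25 (YIL093C, mS23), a gene for a mitochondria-specific small subunit protein, had 75.1% and 88.2% of 795 bp. For each of these 8 genes, both Cbp20 values lay above both Rnt1 values.

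The next members followed closely. MRPL51, MRPL38, MRP4, MRPL36, MRP13, MRP1, MRPL16, MRPL37, MRP8, MRPL9 and MRPS16 made up the rest of the 19 genes with at least 50% in both replicates. Among them, MRPS16 was lowest in replicate 1 with 51.9%, and MRPL9 lowest in replicate 2 with 59.0%. MRP8, the gene outside the ribosome by its annotation, had 58.0% and 64.8%. Just below were MRPL11 with 62.1% and 47.3% and MRPL1 with 46.6% and 56.4%. At the low end of the 32, MRP7 had 15.2% and 8.78%, and MRPL22 had 10.5% and 18.7%. By the number of bases in a peak centred inside the gene, MRP4 (YHL004W, uS2m, small subunit) came first with 908 bp and 888 bp in the replicates. It is overlapped by the gene model YHL005C.

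**Figure D1:**
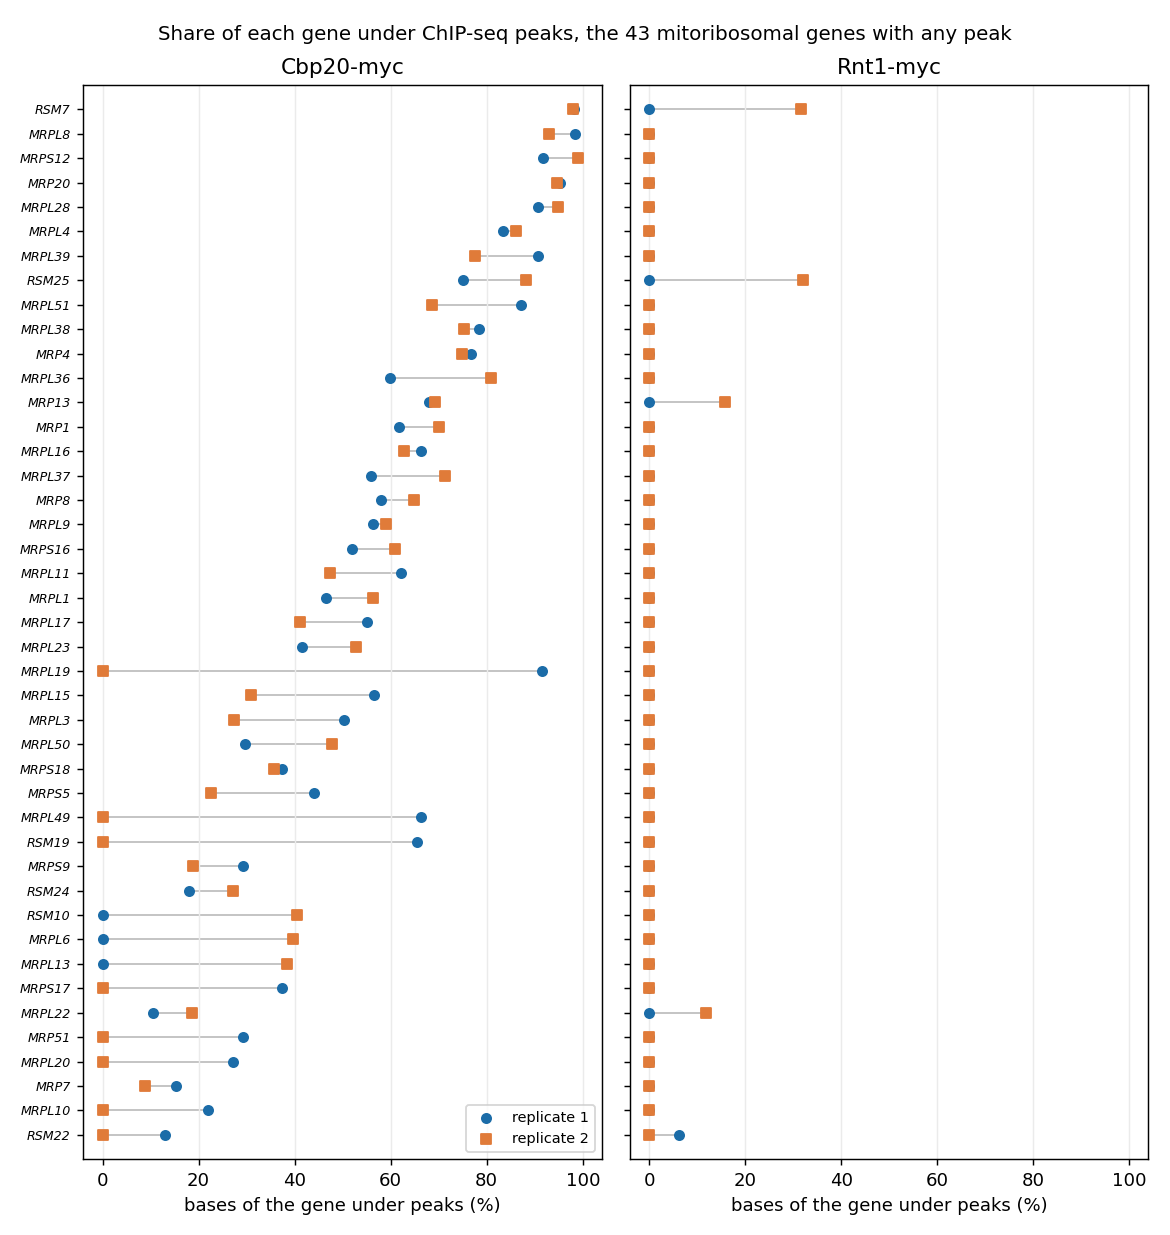
Percent of each gene's bases under Cbp20 peaks and under Rnt1 peaks, for the mitoribosomal genes with any peak in any of the 4 lists, with circles for replicate 1 and squares for replicate 2. RSM7 leads with 98.3% and 98.0% for Cbp20. In the Rnt1 panel nearly all points are at 0, where squares hide circles, and RSM25 and RSM7 reach 32.1% and 31.7% in replicate 2 only.

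Replicates were close for most genes called in both. The median absolute difference in Cbp20 share was 8.70 percentage points over the 32 genes, and 19 of them differed by at most 10 points. The largest differences came from genes with a peak in one list and none in the other. MRPL19 (YNL185C, uL11m) had 91.6% in replicate 1 and 0% in replicate 2. MRPL49 (YJL096W, bL21m) had 66.3% and 0%, and RSM19 (YNR037C, uS19m) had 65.6% and 0%. RSM10 (YDR041W, uS10m) went the other way with 0% and 40.5%. For these 4 genes the values of the replicates do not settle a level. Without replicate 2 the number of members with a Cbp20 peak was 40, and without replicate 1 it was 35.

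RSM19 and MRPS12 are the only members that neighbour each other, 229 bp apart on the minus strand of chromosome XIV. MRPS12, the downstream one, had Cbp20 peaks over most of its length in both replicates. RSM19 had a Cbp20 peak in replicate 1 alone. In replicate 1 both genes thus carried Cbp20 peaks, and in replicate 2 MRPS12 alone did.

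Genes of the large subunit carried Cbp20 peaks somewhat more often than those of the small subunit. Peaks in both replicates were found on 20 of 38 large subunit genes (52.6%) and on 11 of 28 small subunit genes (39.3%). The mean Cbp20 share was 37.8% and 33.5% in the replicates for the large subunit, against 28.5% and 25.2% for the small subunit. The mean over replicates differed by 8.84 points, while single genes ranged from 0% to 98.5% in the large subunit and from 0% to 98.9% in the small one. With only the wider 50% of each library's peaks, the difference was 1.48 points.

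Gene length moved with the calls in the members. Those with Cbp20 peaks in both replicates had a median length of 756 bp, and the other 35 had 552 bp. For other genes with and without such peaks the medians were 1225.5 bp and 1200 bp. Among members under 500 bp, 9 of 25 (36%) carried Cbp20 peaks, against 38.2% of other genes of that length. From 500 bp to under 900 bp it was 14 of 26 (53.8%) against 47.8%, and from 900 bp to under 1888 bp 9 of 16 (56.3%) against 48.2%. The mean Cbp20 share over replicates was lower in the members in each range. In order of length it was 29.8% against 33.4%, 37.5% against 38.1% and 28.0% against 34.0%. The part of length in the counts was not tested. By chromosome, 12 members lie on IV, 10 on XIV and 8 on XI, with Cbp20 peaks on 6, 6 and 2 of them. Shares over all genes of these chromosomes were not computed, so no difference between chromosomes is read from the counts.

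The position of the Cbp20 peaks inside the genes differed more than their frequency did. In the 32 mitoribosomal genes with Cbp20 peaks in both replicates, the share was 49.2% and 52.7% over the 5ʹ 50% of the gene, and 72.0% and 67.5% over the 3ʹ 50%. The 3ʹ share exceeded the 5ʹ share by 22.7 points in replicate 1 and 14.8 points in replicate 2. In the 2660 other genes with Cbp20 peaks in both replicates, it did so by 6.75 and 4.60 points. The 3ʹ share was the higher one in 22 and 24 of the 32 members, and in 1351 and 1274 of the 2660 other genes, where it was equal in 536 and 456. Thus a lean to the 3ʹ side was present in both sets and in both replicates, and was larger for the members.

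Against all other genes with Cbp20 peaks in both replicates, the sets differed more at the start of the genes than at their end. Over the first 200 bp, 34.3% and 38.9% of bases were under Cbp20 peaks in the members, against 58.3% and 57.3% in other genes. Over the last 200 bp the values were 72.6% and 64.5% in the members, against 69.8% and 63.3% in other genes. So in this comparison the sets lay closer together at the ends than at the starts. The other genes include 399 wholly under Cbp20 peaks in both replicates, which raise their values at both ends and have no counterpart among the members. Values without these genes were not computed, so the difference is not placed at the start alone. The background for the first and last base includes them too. The first base of the gene was under Cbp20 peaks in both replicates in 2 members (2.99%), MRPL8 and MRP13, and the background was 11.2%. The last base was covered in 13 members (19.4%), and the background was 19%.

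Where Cbp20 peaks began was measured on the same 32 genes. The peaks of a gene, joined, began after the first base of the start codon in 30 members (93.8%) in replicate 1 and 29 (90.6%) in replicate 2. This was so in 68.3% and 71.5% of other genes with Cbp20 peaks, and in 67.3% and 70.6% of those within the members' length range. The first covered base lay a median of 168.5 bp and 138 bp after the start in the members, against 54 bp and 56 bp in other genes. These other genes include 399 wholly under Cbp20 peaks in both replicates, a class without members whose peaks cannot begin inside the gene. With that class left out, the peaks began inside in 1816 and 1901 of 2261 other genes in the replicates, against 30 and 29 of 32 members. By another measure, 1992 of the 2261 did not have the first base covered in both replicates, against 30 of 32 members. So the sets lay closer together than with that class, with the members still higher. The medians without it were not computed. The sequences above show this boundary in RSM7, MRPS12, MRP20 and MRPL28, where the lower-case stretch opens the gene. In MRPS12 it comes from replicate 1, whose peak began 10 bp after the start, while that of replicate 2 began 18 bp before it. RSM7 began 13 bp after the start in replicate 1 and 15 bp in replicate 2. MRP20 began 37 bp and 43 bp after it. Over the 32 genes the replicates differed in this boundary by a median of 47.5 bp, and by 2 bp in RSM7 up to 520 bp in RSM24. In RSM24 the replicates had different peaks, so its value is not a shift of the same boundary. MRPL3 began 349 bp after the start in replicate 1 and 844 bp in replicate 2. The first of its peaks in replicate 1 had no overlapping peak in replicate 2, so this is not a shift of the same boundary either.

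At the other end the comparison was less uniform. Joined Cbp20 peaks ran past the stop codon in 20 members (62.5%) and 13 members (40.6%), against 54.5% and 43.6% of other genes and 63.3% and 51.7% of those in the length range. Both ends lay inside the gene in 10 members (31.3%) in replicate 1 and 16 (50%) in replicate 2, against 35.6% and 45.8% of other genes and 29.0% and 39.6% of those in the length range. So the order of the sets at this end changed with the replicate or with the genes compared. By bases covered in both replicates, 13 members were covered at the 3ʹend only, 2 at the 5ʹend only, 17 at neither end and 0 at both. The shares of these classes over all genes were not computed, so the counts do not set the members apart.

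**Figure D2:**
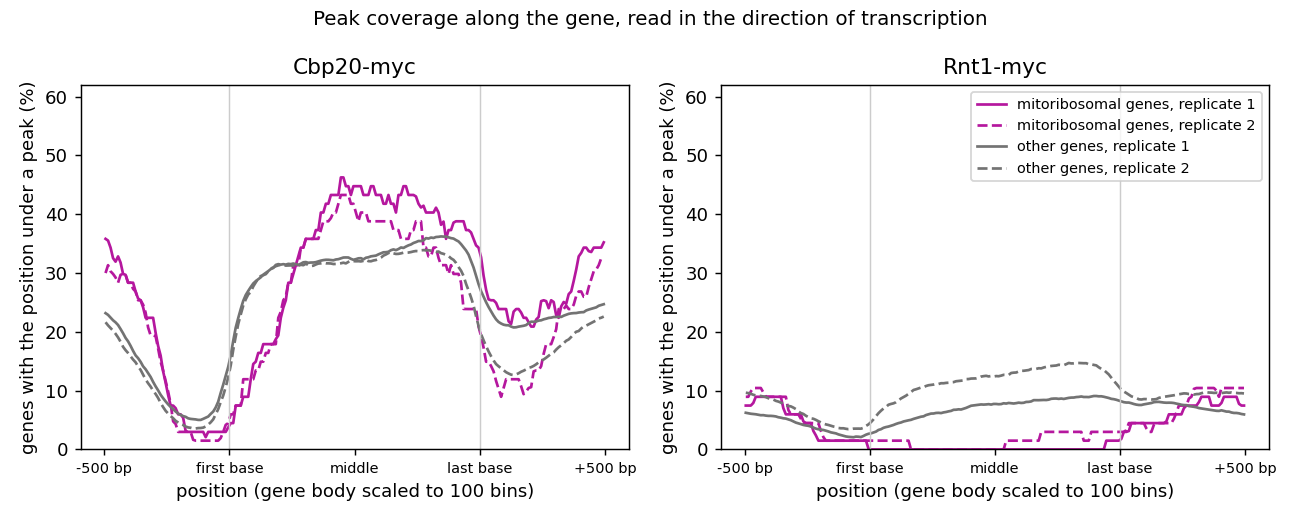
Percent of genes with a peak at each position, from 500 bp before the gene across 100 scaled bins of the gene to 500 bp past it, for the 67 mitoribosomal genes and for other genes, with 1 line a replicate. For Cbp20 the first bin of the gene was covered in 4.48% and 5.97% of the mitoribosomal genes against 16.0% and 14.3% of other genes, while in the middle it was 44.8% and 40.3% against 32.4% and 32.0%. The Rnt1 lines of the mitoribosomal genes stay at or under 2.99% inside the gene.

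**Figure D3:**
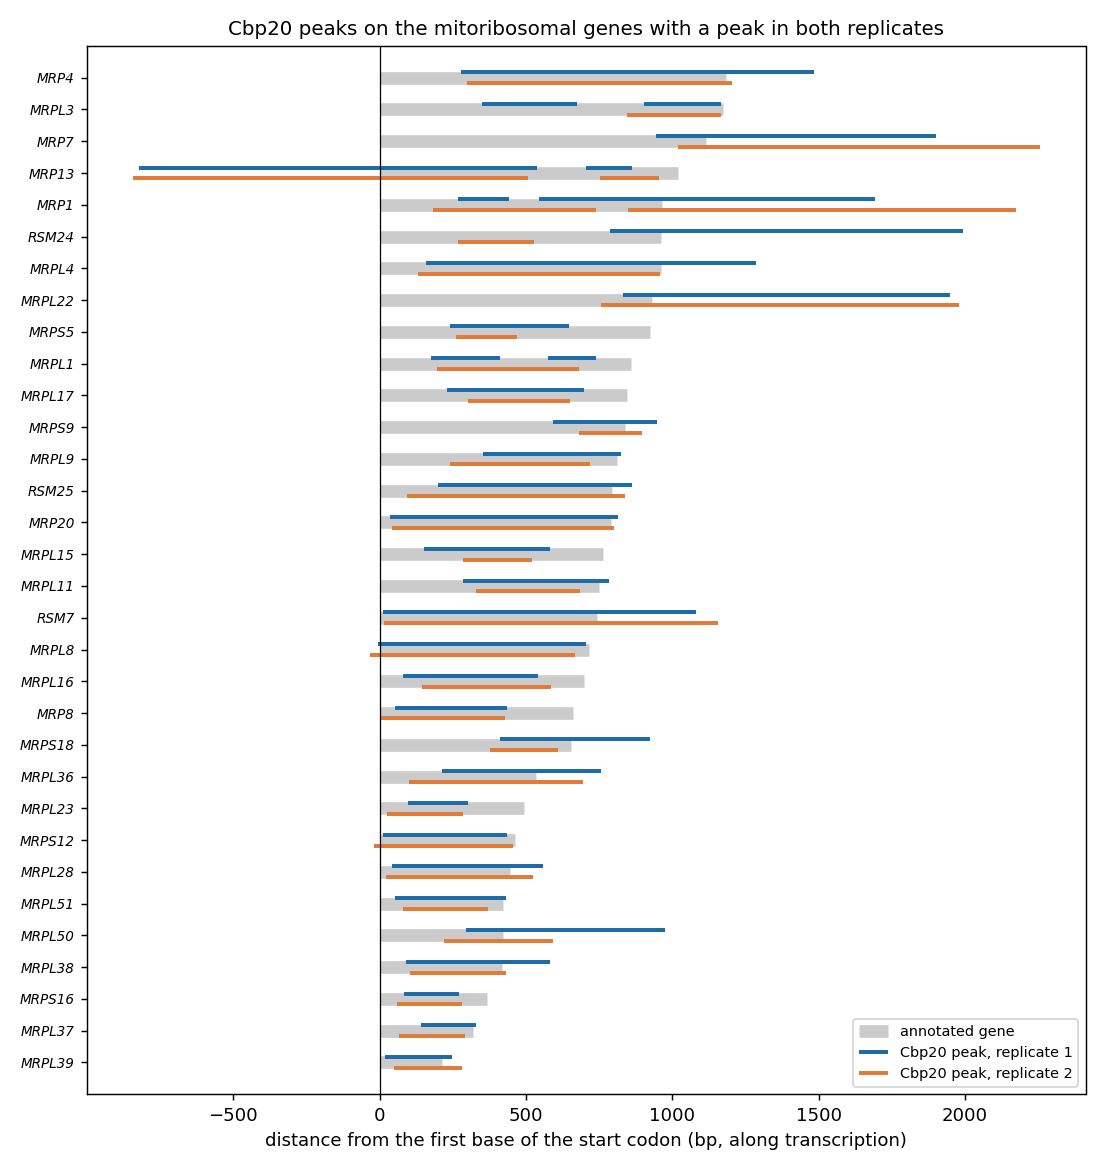
Extent of the Cbp20 peaks on the 32 mitoribosomal genes that carried them in both replicates, 1 row a gene, with distance from the first base of the start codon in bp. Most bars open to the right of 0, as 30 and 29 of 32 genes did, and MRP13 is the row whose peak reaches 822 bp and 844 bp before the gene.

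Most Cbp20 peaks that touched a member were centred in it. In replicate 1, 45 distinct peaks touched members, 36 were centred in one and 32 touched no other gene. In replicate 2 there were 37, of which 33 were centred in a member and 31 touched no other gene. Their median width was 430 bp and 374 bp, against 484 bp and 498 bp over the whole Cbp20 lists. For 21 of the 32 genes no other gene was under these peaks in either replicate. The shares over all genes were not computed for these counts, so they do not set the members apart. By gene, a centred Cbp20 peak in both replicates was on 40.3% of members, and the background was 38.3%. The exceptions include RSM7, where the peak also reached YJR112W-A, 63 bp downstream. Likewise the same peak covered part of MRP1 and PAL1, of MRPL22 and RPS3, and of MRP7 and LST8, in both replicates. In RSM24 the replicates had different peaks, that of replicate 1 lying mostly on HMO1 and that of replicate 2 inside RSM24. MRP13 shared its peak with RPL11B, a cytosolic ribosomal protein gene 240 bp upstream.

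Rnt1 was listed on almost none of these genes. No mitoribosomal gene carried a Rnt1 peak in both replicates (0 of 67), against 13.1% of other genes, and 12.9% of all nuclear protein-coding genes were called. Stricter calls are part of this one, so their counts had to be 0 as well and are not further observations. They are at least 50% of bases under Rnt1 peaks (background 6.6%), a centred Rnt1 peak (9.61%) and peaks of both proteins (12.5%), each in both replicates. These zeros say that no member held a listed Rnt1 peak in both replicates. They set no limit on the level of Rnt1, since the depth is unknown.

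In single Rnt1 lists, 5 members had a peak (7.46%), against 21.4% of other genes, and the background for either replicate was 21.2%. Replicate 1 had 1 of them (1.49% of members, against 13.6% of other genes). Replicate 2 had the other 4 (5.97%, against 20.8%). Averaged over all genes, the Rnt1 share was 0.0918% and 1.37% of bases in the members, against 7.10% and 11.9% in other genes. In each replicate the members therefore lay below other genes, while no single value was repeated.

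Of these 5 genes, 2 had the Rnt1 peak centred inside. RSM25 had 0% in replicate 1 and 32.1% in replicate 2, from a peak of 359 bp that covered 255 bp of its 3ʹend and, past the stop codon, the Puf3-type site shown above. RSM7 had 0% and 31.7%, from a peak of 236 bp wholly inside the gene. Both are among the 8 genes with the highest Cbp20 share. The 3 other peaks lay mostly on a neighbour.

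Each of these neighbours is a gene for a cytosolic ribosomal protein. The replicate 2 peak on MRP13 (mS44, small subunit), with 15.8% of the gene, had 161 bp in it and 525 bp in RPL11B. The replicate 2 peak on MRPL22 (uL22m, large subunit), with 11.9% of the gene, had 111 bp in it and 723 bp in RPS3. The replicate 1 peak on RSM22, with 6.15% of the gene, had 116 bp in it and 410 bp in RPS27A. RSM22, the longest member at 1887 bp, is annotated as a small subunit protein and a predicted methyltransferase.

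The distance to the nearest Rnt1 peak was longer for the members in both replicates, where a gene touched by a peak counts as having no distance. Its median was 4339 bp and 2999 bp, against 2821 bp and 1591 bp for other genes. These values therefore partly restate that fewer members carried a Rnt1 peak. Medians without the genes that carry one were not computed. A Rnt1 peak lay within 500 bp of 13 members (19.4%) and 17 members (25.4%), against 24.4% and 33.4% of other genes. Of these, 1 and 4 members had the peak on the gene itself, as did 809 of 1446 and 1235 of 1981 other genes. So the counts do not show that Rnt1 peaks outside the genes lay farther from the members. A Cbp20 peak lay within that distance of 57 (85.1%) and 53 (79.1%), against 68.4% and 65.4%. Genes for tRNA, snoRNA or snRNA, of which many snoRNA and snRNA are known Rnt1 substrates, were about as frequent near members. They lay within 500 bp of 4 members (5.97%), against 6.22% of other genes.

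Because Rnt1 peaks were more frequent on genes with more Cbp20 cover, genes of like Cbp20 share were set side by side. Among other genes with Cbp20 peaks in both replicates, 28.2% also had Rnt1 in both, against 0 of 32 members. As no member had Rnt1 in both replicates, the members' count for that call is 0 in any class. Only their values for either replicate can differ between classes. Where the Cbp20 share was 75% to under 100%, 0 of 11 members had Rnt1 peaks in both replicates and 2 had one in either. Of the 906 other genes in that range, 30.0% had them in both and 54.2% in either. From 50% to under 75%, 1 of 10 members had a Rnt1 peak in either replicate, against 29.9% of 498 other genes.

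The highest Rnt1 frequency was in a class without members. Of the 399 other genes wholly under Cbp20 peaks in both replicates, 83.5% had Rnt1 peaks in both. With this class left out, Rnt1 in both replicates was found on 0 of 32 members and on 18.4% of 2261 other genes with Cbp20 peaks. In the lower classes the values were closer. Under 50% Cbp20 share, 1 of 11 members had a Rnt1 peak in either replicate, against 20.1% of 857 other genes. With Cbp20 in 1 replicate alone it was also 1 of 11, against 8.70% of 644 other genes, and with no Cbp20 peak 0 of 24, against 1.18% of 2631.

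**Figure D4:**
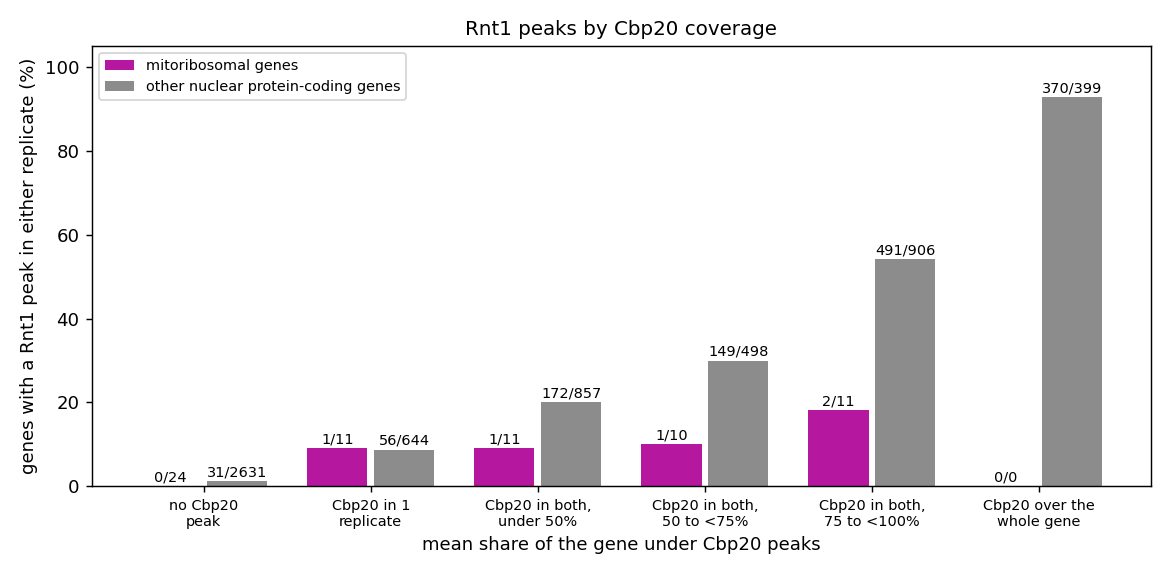
Percent of genes with a Rnt1 peak in either replicate (bars, y axis), by class of the mean Cbp20 share of the gene, for mitoribosomal genes and for other genes, with the counts above the bars. Among other genes the percent climbs with the Cbp20 class to 54.2% at 75% to under 100% and 92.7% where the whole gene is covered, while 2 of 11 mitoribosomal genes had such a peak at 75% to under 100% and none falls in the last class.

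Across the 4 libraries, 31 of the 67 members (46.3%) had both Cbp20 shares above both Rnt1 shares, against 40.3% of other genes, and the background over all genes was 40.4%. For 24 members all 4 values were 0. The other 12 overlapped between the proteins. They are the 11 genes with a Cbp20 peak in one replicate only, and MRPL22. RSM7 is a case with no overlap: its Cbp20 shares were 98.3% and 98.0%, and its Rnt1 shares 0% and 31.7%.

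The Puf3-type element was far more frequent in the members than in other genes. TGTANATA was found on the sense strand within 200 bp past the stop codon in 65 of 67 members (97.0%), against 13.1% of other genes, and 14.1% of all nuclear protein-coding genes held it. All 38 large subunit genes and 27 of 28 small subunit genes had it. It was not in this window in RSM22 and MRP8. MRP8 is the gene whose annotation does not place it in the ribosome. On the opposite strand, 13 members (19.4%) held it, against 13.2% of all genes. A match is a sequence description and was not tested as a site of binding.

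The 65 genes held 79 sites, and 13 genes had more than 1. The nearest site began a median of 51 bp past the stop codon, with a range of 8 to 139 bp, and in 61 genes it lay within 100 bp. The free base N was A in 36 sites, T in 25, C in 17 and G in 1. Of the sequences shown, RSM7 has C at this place, MRP20 and RSM25 have T and the other 3 have A. The first base lay 22 bp past the stop codon in RSM7, 27 bp in MRPL8, 32 bp in MRPL28 and 39 bp in RSM25. In MRP20 it lay 73 bp past it and in MRPS12 74 bp.

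Whether the element goes with Cbp20 peaks cannot be told from the members, because only 2 of them lack it. Of the 65 genes with a site, 31 had Cbp20 peaks in both replicates, and of the 2 without a site, MRP8 had them. Among other genes, Cbp20 peaks in both replicates were on 42.1% of the 779 with a site and 45.2% of the 5156 without. In all, 9 sites in 7 members were themselves under Cbp20 peaks in both replicates, among them those of RSM7 and MRPL28. Under Rnt1 peaks in both replicates were 2 sites, of MRPS8 and MRPL22. For neither count was the share over the sites of all genes computed, so neither sets the members apart. MRPS8 (uS8m, small subunit) had no peak inside the gene, but the tRNA gene EMT4 lies 167 bp downstream of it.

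Other genes of mitochondrial translation were taken from a list of 56, of which 55 were used because MRPS12 is already a member. Mitoribosomal proteins with other symbols numbered 13, and 7 of them had Cbp20 peaks in both replicates. IMG1, a large subunit gene, was under Cbp20 peaks over its whole length, with 100% in both replicates and no Rnt1 peak. MNP1, the counterpart of a bacterial stalk protein, had 96.1% and 95.2%. MHR1, whose product is also known for recombination of mitochondrial DNA, had 83.6% and 90.2% for Cbp20, and 0% and 38.9% for Rnt1. All 13 of these genes held the Puf3-type element, as did 34 of the 42 remaining genes of the list.

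Outside the ribosome Cbp20 peaks were listed on fewer of these genes. They were found in both replicates on 1 of 8 translation factors, 3 of 13 mitochondrial aminoacyl-tRNA synthetases, 3 of 11 translational activators, 3 of 8 genes for assembly and membrane tethering and 0 of 2 for mitochondrial transcription. The translation factor was TUF1, the mitochondrial elongation factor Tu, with 92.5% and 89.2% for Cbp20, and 0% and 57.2% for Rnt1. The assembly and tethering genes were MRM1, an rRNA methyltransferase gene, OXA1, which encodes the insertase of the inner membrane, and MDM38, which encodes a ribosome receptor. In all, 17 of the 55 had Cbp20 peaks in both replicates, and the background over all genes was 44.9%. Rnt1 peaks in both replicates were on 0 of them, and the background was 12.9%.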

How the data were processed

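Peak positions were analysed in 4 ChIP libraries, 2 for Cbp20-myc and 2 for Rnt1-myc, and groups were taken from the labels. The authors mapped paired-end reads to sacCer3 with Bowtie2, kept uniquely mapped reads with mapping quality of at least 30 and called peaks with MACS2 at a q-value below 0.05. One list per library was deposited, with peak positions and no other measurement. A fixed threshold turns occupancy into presence or absence, so a weak site can be lost in one replicate. The submitters' processing notes also name TopHat. Versions were not given in the sources used here.

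Genes came from the RefSeq R64 annotation, whose chromosomes hold all deposited peaks (0 outside). Overlaps were computed from 1 bp on with Python 3.11.15 and numpy 2.4.6, and figures drawn with matplotlib 3.10.9. The overlap code was tested on simulated data of 200 genes and recovered 100% of them. Universal names and subunits came from RefSeq synonyms, by which MRP35 was counted as large (bL35m). The members, gene lists and tests were chosen with earlier results of these data known.

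Named were the 8 members with the highest mean Cbp20 share, those with Rnt1 peaks, the 4 with the largest replicate difference, up to 6 with the most bases in a centred peak, and adjacent members. Members with Rnt1 in a single replicate, MRP13 and the ends of the range were chosen after their values were seen. Start windows of 100 coding bases replaced the planned promoter windows. Alternatives were at least 50% cover, the wider 50% of peaks (the lists hold no score), centred peaks, the members' length range, leaving out genes near RNA genes, and each replicate alone. Those without MRP8, with Rnt1 in either replicate, and within genes with Cbp20 peaks were chosen after seeing the data.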

Additional observations from a re-analysis of the deposited data

How the results depend on the processing

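The margin was 1.5 times for a count and 1 SD between replicates for other values. Of 46 alternatives over 8 results, 26 stayed within it, 16 moved beyond it and 4 turned the direction. The members with a Cbp20 peak in both replicates numbered 19 with at least 50% of the gene covered and 12 with the wider 50% of peaks, and 35 to 40 in single replicates. Their percent minus that of other genes, 2.94 points, turned to -11.4 with the wider peaks and was 3.11 to 8.35 in single replicates. The difference in mean Cbp20 share, 1.05 points, was 3.19 without genes near RNA genes, -9.56 with the wider peaks, -2.67 in the length range and -0.16 to 2.26 in single replicates. Members with a Rnt1 peak numbered 1 to 4 in single replicates and 5 in either. The Rnt1 difference in percent, -13.1 points, was -6.67 at 50% cover, -9.06 with the wider peaks and -9.72 for centred peaks. It was -28.2 among genes with Cbp20 peaks and -18.4 among those not wholly covered. In these settings no member can be called, since none had Rnt1 in both replicates. Each value is thus minus the percent of other genes, and its sign was fixed in advance. The counts of alternatives above include such settings. In replicate 1 alone the difference was -12.1 points, and in replicate 2 alone -14.8. The difference in mean Rnt1 share, -8.76 points, was -19.1 among genes with Cbp20 peaks. Large minus small subunit, 8.84 points, was 6.29 without genes near RNA genes and 1.48 with the wider peaks. The 3ʹ minus 5ʹ difference of Cbp20, 18.8 points, was 32.0 for the last minus the first 200 bp. Where a cause is not plain from the alternative's construction, the cause was not tested. No paired analysis was possible because the labels number only the second library of each protein and no test was made. Depth is unknown, so a gene without a peak cannot be told from a weak one.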
